A study of Mus musculus with 4 samples.

Results

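The SLC25 mitochondrial carriers are the largest family of metabolite transporters in the inner mitochondrial membrane. The genes examined here are all protein-coding mouse genes whose symbol begins with Slc25a, apart from Slc25a3, Slc25a4, Slc25a5 and Slc25a31, which encode the phosphate carrier and the adenine nucleotide translocators. This rule gave 43 of the 21887 protein-coding genes on chromosomes 1 to 19, X and Y. Each was scored for a Flag ChIP peak at its ends.

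The peaks come from chromatin immunoprecipitation followed by sequencing (ChIP-seq) with a Flag antibody. The cells were the lineage-negative fraction of bone marrow, which is left after cells with mature blood-lineage markers are removed, and came from C57BL/6 mice of 8 weeks with the genotype 3xFlag-Nynrin-Tg. There are 2 Flag ChIP libraries and 2 input libraries, all from transgenic mice, and the labels name neither the promoter that drives the transgene nor the number of animals pooled. The authors' 2 Flag peak lists are described, and the inputs are not analysed here. No library from untagged mice was used, so a peak is a region that the authors' peak caller listed. The labels do not tell whether separate mice gave the replicates, so their spread may be technical.

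SLC25 carriers are built from 3 repeats of a transmembrane module and swap or carry solutes between the cytosol and the mitochondrial matrix. They feed amino acids, keto acids, nucleotides, coenzymes and iron into the matrix, and export citrate, aspartate and other products. In developing red cells, the mitoferrin Slc25a37 and the glycine carrier Slc25a38 supply the substrates of haem synthesis. Nynrin carries a ribonuclease-like NYN domain and a region derived from a retroviral integrase.

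A gene was called in a replicate when a peak summit, the position of highest signal in a peak, fell at most 1000 bp from an end of the gene, inside or outside it. Of the 43 carrier genes, 22 (51.2%) were called in both replicates, against 31.9% of all protein-coding genes. Another 11 (25.6%) had a summit in replicate 2 alone, against 13.6% of all genes, and 10 (23.3%) had none, against 53.8%. None had a summit in replicate 1 alone, which 0.672% of all genes did. Replicate 1 therefore called 22 carrier genes (51.2%, against 32.6% of all genes) and replicate 2 called 33 (76.7%, against 45.5%). On these chromosomes replicate 1 has 12702 peaks, and replicate 2 has 25787. The carrier genes were chosen with earlier results of these data known, so these shares are descriptions, and whether they differ from other genes was not tested.

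Peak strength is given as fold enrichment, the authors' ratio of signal over background at the summit, and as the authors' −log10 q. Over the 22 called carrier genes, the strongest peak of each gene had a median of 4.22 (range 2.42 to 6.82) for fold enrichment in replicate 1. In replicate 2 the median was 7.71 (range 5.95 to 17.1). The same medians over all 6981 called genes were 4.29 and 7.94. Called carrier genes were thus near the middle of called genes in strength. Values are compared within a list and not between the lists. The order of the genes differed between the lists: the Spearman correlation of fold enrichment was 0.05 over the 22 carrier genes and 0.34 over all 6981 called genes, which share the same libraries.

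**Figure D1:**
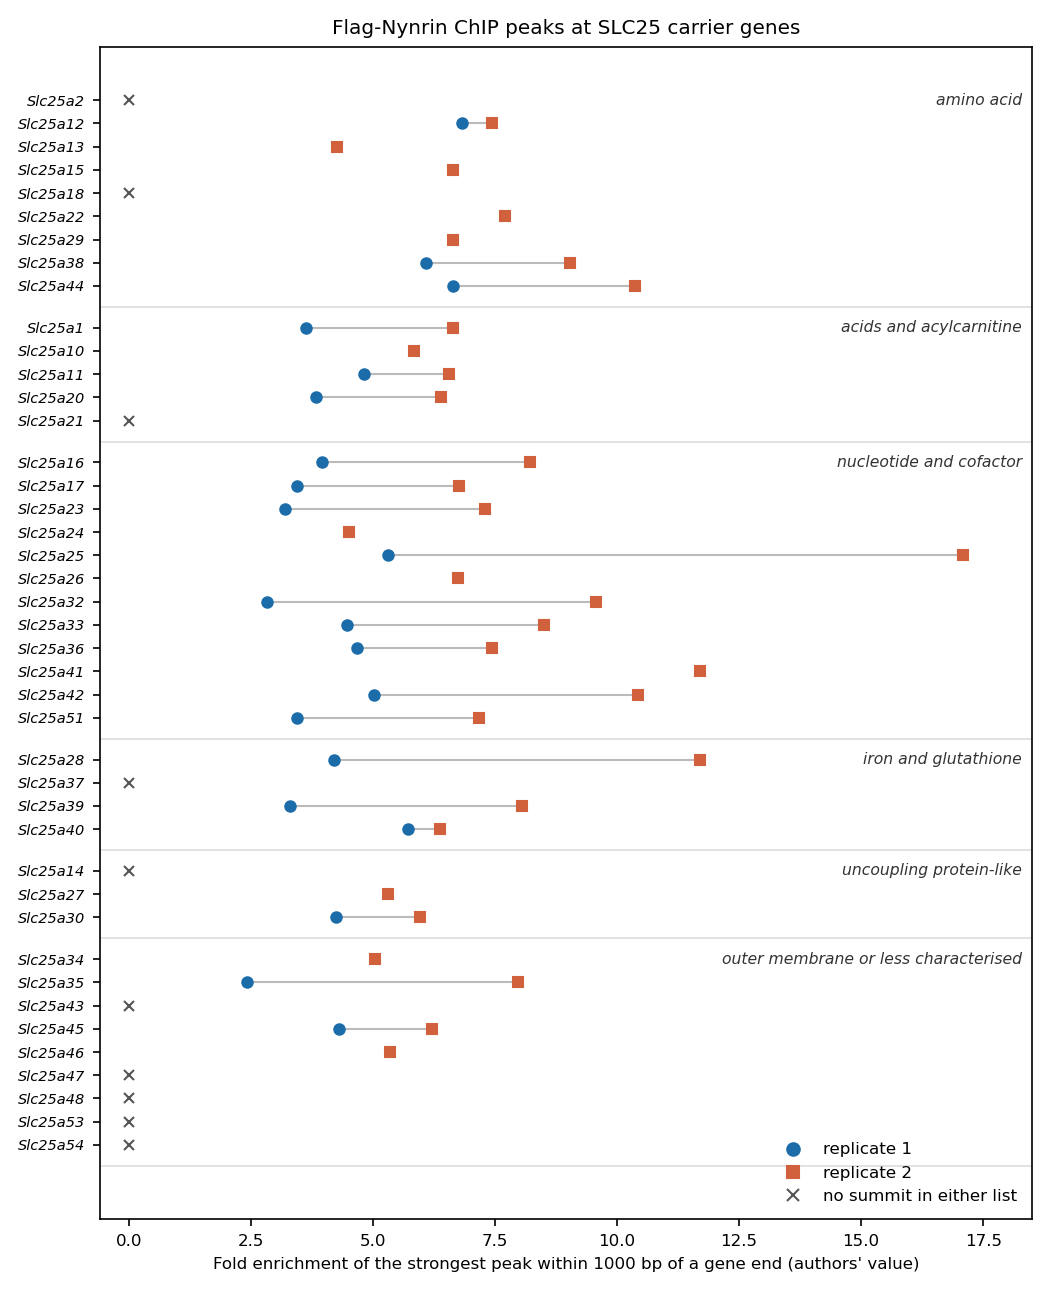
Fold enrichment of the strongest peak within 1000 bp of a gene end (horizontal axis, authors' linear ratio) for 42 of the 43 carrier genes, grouped by transported solute, with a circle for replicate 1, a square for replicate 2, a line joining them and a cross at 0 for no summit in either list. Slc25a25 reached 17.1 in replicate 2, 11 genes have a square alone, 10 have a cross and the others have both symbols.

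Of 9 amino acid carriers, 3 were called in both replicates (33.3%, against 31.9% of all genes), a share near that of all genes. Another 4 were called in replicate 2 alone and 2 in neither. Slc25a44, Slc25a38 and Slc25a12, the 3 called genes, held the top 3 places of the 22 by the lower of their percentile ranks for fold enrichment within the lists. Each rank takes the strongest peak at either end. Over all called genes the median percentile was 58.9 in replicate 1 and 85.4 in replicate 2. The same percentile therefore does not mean the same standing among called genes in the 2 lists. For Slc25a12 this was at the 3′ end in replicate 1 (95.7) and at the 5′ end in replicate 2 (82.8). At a single end its lower percentile was 65.9 (3′) or 45.5 (5′). The strongest peaks of Slc25a44 were shared with Pmf1, and those at its other end stood at the 61.4 and 84.5 percentiles.

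Slc25a44, the carrier of branched-chain amino acids, spans 88410494 to 88425141 on chromosome 3. At its lower-coordinate end, the fold enrichment was 6.64 in replicate 1 and 10.4 in replicate 2, with −log10 q of 14.8 and 26.1. These peaks ran from 88409985 to 88410931 and from 88409562 to 88411302. Their summits lay 105 and 288 bp outside Slc25a44 and inside the neighbouring gene Pmf1, whose end was also within reach. Weaker summits stood at the other end of Slc25a44, 91 and 95 bp outside it, with fold enrichments of 4.38 and 7.71. The end of the noncoding gene Gm33513 was within reach of those.

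Slc25a38, the glycine carrier needed for the first step of haem synthesis, spans 120110377 to 120126093 on chromosome 9. Its fold enrichment was 6.09 in replicate 1 and 9.03 in replicate 2, at the 91.2 percentile of each list. The peaks ran from 120110285 to 120110831 and from 120110022 to 120111081, with summits 28 and 104 bp inside the gene from its 5′ end. No other gene end lay within 1000 bp of Slc25a38. The −log10 q values were 11.0 and 20.9. This was the highest-ranking called carrier gene with no neighbour within reach.

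Slc25a12 encodes the aspartate/glutamate carrier aralar, a part of the malate-aspartate shuttle, and spans 71274270 to 71367781 on chromosome 2. It had summits at both ends in both replicates. At the 5′ end, fold enrichment was 3.96 in replicate 1 and 7.44 in replicate 2, with summits 132 and 37 bp inside the gene. At the 3′ end it was 6.82 in replicate 1 and 5.58 in replicate 2, with summits 110 and 12 bp inside. The stronger peak was thus at the 3′ end in replicate 1 and at the 5′ end in replicate 2. Further summits lay deep inside the gene, 29510 and 29503 bp from the 5′ end, with fold enrichments of 5.68 and 5.02. A weaker pair stood 40382 and 40484 bp from it, with 3.69 and 3.45. Slc25a13, the other aspartate/glutamate carrier (citrin), had a summit in replicate 2 alone, 93 bp inside its 5′ end on chromosome 6, with a fold enrichment of 4.25 and a −log10 q of 4.76. In replicate 1 the summit nearest to an end of Slc25a13 was 360388 bp away.

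The promoters of this related pair are printed first, as 300 bases of RefSeq sequence (GRCm38.p6) from 250 before to 50 after the annotated start site, read 5′ to 3′ along the gene. Capitals mark the 7 motifs searched on either strand. The GC box was searched as GGGCGG, the CCAAT box by its own letters and the TATA box as TATAAA. The E-box was searched as CACGTG, the cAMP response element as TGACGTCA and the ETS factor sequence as CCGGAAGT. The last was the NRF1 palindrome. None of these contains another. Slc25a12 lies on the minus strand at chr2:71367706-71368005, and Slc25a13 on the minus strand at chr6:6217124-6217423.
Slc25a12: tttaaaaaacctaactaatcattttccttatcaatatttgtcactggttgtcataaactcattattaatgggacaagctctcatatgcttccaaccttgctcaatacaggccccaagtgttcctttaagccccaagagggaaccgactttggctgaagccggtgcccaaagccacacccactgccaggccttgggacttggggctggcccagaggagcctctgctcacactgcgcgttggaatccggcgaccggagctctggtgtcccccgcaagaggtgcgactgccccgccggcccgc
Slc25a13: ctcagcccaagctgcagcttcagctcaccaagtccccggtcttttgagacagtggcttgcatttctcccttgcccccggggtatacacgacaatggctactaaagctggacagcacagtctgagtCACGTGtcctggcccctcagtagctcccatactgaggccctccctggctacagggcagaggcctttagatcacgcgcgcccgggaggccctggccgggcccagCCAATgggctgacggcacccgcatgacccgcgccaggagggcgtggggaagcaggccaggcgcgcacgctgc
The Slc25a12 window held none of the 7 motifs, and 12 CpG dinucleotides. The Slc25a13 window held CACGTG and CCAAT, and 17 CpG dinucleotides. The replicate 2 summit of Slc25a12 was at base 262 of the printed run, and that of Slc25a13 at base 213. The listed start site of Slc25a13 is 131 bp inside the 5′ end of its gene bounds. Its summit, inside the gene, thus lay 38 bp before that site.

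The other amino acid carriers with a summit in replicate 2 alone were Slc25a22, Slc25a15 and Slc25a29. Slc25a22, a glutamate carrier, had a fold enrichment of 7.71 there (−log10 q 15.9), 191 bp inside its 5′ end and within reach of Pidd1. Slc25a15, the ornithine carrier of the urea cycle, and Slc25a29, a carrier of basic amino acids, each had 6.64 (−log10 q 12.1), 44 bp inside and 155 bp outside their 5′ ends. The noncoding gene 1810012K16Rik was within reach of the Slc25a15 summit, and the microRNA gene Mir345 of that of Slc25a29. In replicate 1 the nearest summits to the ends of these 3 genes lay 9483, 78305 and 31471 bp away. Slc25a18, the other glutamate carrier, had no summit at its ends in either list, and a weak one inside the gene in replicate 2 (3.62). Slc25a2, an ornithine carrier on chromosome 18, also had none.

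Carriers of keto acids, citrate and acylcarnitine were called in both replicates in 3 of 5 cases (60.0%, against 31.9% of all genes). Slc25a11, the oxoglutarate/malate carrier that completes the malate-aspartate shuttle, spans 70644019 to 70647531 on chromosome 11. Its fold enrichment was 4.82 in replicate 1 and 6.55 in replicate 2, with −log10 q of 10.2 and 14.0. The summits were 538 and 143 bp inside the 5′ end and 395 bp apart, the widest separation among the 22 genes. The end of Rnf167 was within reach of both. The listed start site of Slc25a11 is 492 bp inside the 5′ end of its gene bounds. From that site the summits lay 46 bp after it in replicate 1 and 349 bp before it in replicate 2. Slc25a1, which exports citrate for lipid synthesis, had 3.62 and 6.64, with summits 457 and 447 bp before its 5′ end. Slc25a20, the carnitine/acylcarnitine carrier that brings fatty acids in for oxidation, had 3.84 and 6.40.

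Slc25a20 was the only one of 17 called carrier genes with a promoter sequence whose summits both fell inside the printed window, at base 259 in replicate 1 and base 189 in replicate 2. Its window is at chr9:108661886-108662185 on the plus strand and is shown for that reason.
Slc25a20: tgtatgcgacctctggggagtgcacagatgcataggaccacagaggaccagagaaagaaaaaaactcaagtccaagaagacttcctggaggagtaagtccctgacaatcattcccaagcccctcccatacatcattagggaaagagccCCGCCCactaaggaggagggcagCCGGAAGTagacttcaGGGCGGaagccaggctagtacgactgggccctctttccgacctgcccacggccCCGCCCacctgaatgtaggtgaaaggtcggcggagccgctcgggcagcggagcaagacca
It was the only carrier promoter in the table with CCGGAAGT, at bases 172 to 179, and it held 3 GC boxes, the nearest at bases 188 to 193. The replicate 2 summit lay inside that GC box.

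Slc25a10, the dicarboxylate carrier, had a summit in replicate 2 alone (fold enrichment 5.85, −log10 q 9.49), 83 bp inside its 5′ end. Slc25a21, the oxodicarboxylate carrier of lysine and tryptophan breakdown, is the longest carrier gene at 484839 bp. It had no summit at its ends or inside in either list, and the nearest was 876437 bp from an end in replicate 1 and 32972 bp in replicate 2.

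Nucleotide, cofactor and coenzyme carriers were called in both replicates in 10 of 13 cases (76.9%, against 31.9% of all genes), and the other 3 had a summit in replicate 2. All 13 were thus called in replicate 2, against 45.5% of all genes. The next highest share among the 6 role groups was 75.0%, in the 4 iron and glutathione carriers, and differences between groups were not tested.

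Slc25a25, an ATP-Mg/phosphate carrier regulated by calcium, spans 32414487 to 32451470 on chromosome 2. Its peak in replicate 2 had a fold enrichment of 17.1 and a −log10 q of 57.7, and only 11 of the 25787 peaks had a higher fold enrichment. In replicate 1 the values were 5.30 and 16.7, with 2256 peaks of higher fold enrichment. The replicate 1 peak ran from 32450900 to 32452597 and the replicate 2 peak from 32450245 to 32452895. They covered the 5′ end, and their summits lay 711 and 626 bp before it, inside the overlapping gene Naif1. Replicate 2 also had a weaker summit (4.78), 73 bp before an annotated start site that lies 27404 bp from the 5′ end. Another start site, 20319 bp from that end, had its nearest replicate 2 summit 7012 bp away.

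The related ATP-Mg/phosphate carriers had weaker peaks. Slc25a23 had fold enrichments of 3.20 and 7.29, with summits 646 and 637 bp before its 5′ end. Slc25a24 had a summit in replicate 2 alone (4.50, −log10 q 6.06), 193 bp inside its 5′ end and within reach of the noncoding gene Gm19391, and both lists had a summit deep inside the gene, 30784 and 30745 bp from that end (3.82 and 4.25). Slc25a41 had a strong summit in replicate 2 (11.7, −log10 q 31.6), 871 bp outside its lower-coordinate end and within reach of Khsrp. In replicate 1 the nearest summit was 1034 bp from Slc25a41, just beyond the limit.

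Slc25a42, a coenzyme A carrier, spans 70184340 to 70212281 on chromosome 8. It had fold enrichments of 5.02 and 10.4, −log10 q of 11.6 and 29.1, and summits 248 and 338 bp before the 5′ end. Slc25a16, also linked to coenzyme A supply, had 3.96 and 8.21 at its 5′ end, with summits 111 and 84 bp inside. It had weaker peaks beyond its 3′ end, 534 and 537 bp outside and within reach of the start of Dna2 (3.07 and 5.31). The pyrimidine nucleotide carriers were both called. Slc25a36, at 97075281 to 97111041 on chromosome 9, had 4.68 and 7.44, with summits 137 and 210 bp inside the 5′ end and −log10 q of 8.65 and 15.8. Slc25a33, at 149744036 to 149774267 on chromosome 4, had 4.47 and 8.50, with summits 15 and 86 bp inside and −log10 q of 8.13 and 18.8.

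The Slc25a36 promoter is shown because it held the most kinds of motif of any carrier promoter, at chr9:97110992-97111291 on the minus strand.
Slc25a36: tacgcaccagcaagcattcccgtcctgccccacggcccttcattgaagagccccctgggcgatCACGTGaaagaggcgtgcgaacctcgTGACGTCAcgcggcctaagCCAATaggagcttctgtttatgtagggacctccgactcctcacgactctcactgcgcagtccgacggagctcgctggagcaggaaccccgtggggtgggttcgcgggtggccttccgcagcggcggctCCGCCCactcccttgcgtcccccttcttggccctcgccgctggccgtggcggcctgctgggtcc
It held CACGTG at bases 64 to 69, TGACGTCA at bases 90 to 97, CCAAT at bases 109 to 113 and a GC box on the opposite strand at bases 237 to 242. Both summits lay beyond the printed window, inside the gene. It was the only carrier promoter with TGACGTCA.

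Slc25a32, the folate and FAD carrier, stood low in the replicate 1 list and high in the replicate 2 list. Its fold enrichments were 2.83 and 9.57, with Dcaf13 within reach of the summits. These values stood at the 6.35 and 93.2 percentiles, against medians of 58.9 and 85.4 over all called genes. Slc25a51, the NAD carrier, had 3.43 and 7.17, within reach of the noncoding gene Gm46852. Slc25a17, which serves peroxisomes and not mitochondria, had 3.43 and 6.77. Slc25a26, the S-adenosylmethionine carrier, had a summit in replicate 2 alone, 1 bp inside its lower-coordinate end (6.73, −log10 q 12.7). In replicate 1 its nearest summit was 8736 bp inside the gene, with a fold enrichment of 3.46.

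Of the 4 iron and glutathione carriers, 3 were called in both replicates (75.0%, against 31.9% of all genes) and 1 in neither. Slc25a28, mitoferrin 2, the iron carrier of most tissues, spans 43663801 to 43675006 on chromosome 19 and was called in both replicates. Its fold enrichment was 4.20 in replicate 1 and 11.7 in replicate 2, with −log10 q of 8.52 and 31.6, and 502 of the 25787 replicate 2 peaks were stronger. The summits lay 24 and 144 bp before its 5′ end, within reach of the noncoding gene BC037704. Slc25a37, mitoferrin 1, the iron carrier of developing red cells, at 69241848 to 69285544 on chromosome 14, had no summit at its ends or inside in either list. The nearest summits were 447158 bp away in replicate 1 and 422019 bp away in replicate 2. The stretch without a summit around it ran for 1664531 bp in replicate 1 and 1656107 bp in replicate 2, and held 18 and 16 protein-coding genes. Of all protein-coding genes, 10.4% were at least as far from a summit as Slc25a37 in both lists. Whether the lists as used here are complete over this stretch could not be checked, so the missing summit at Slc25a37, and its difference from Slc25a28, are limited to the peaks listed.

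The Slc25a28 promoter is shown as that of the called mitoferrin, at chr19:43674832-43675131 on the minus strand, beside that of the haem-linked Slc25a38 at chr9:120110132-120110431 on the plus strand.
Slc25a28: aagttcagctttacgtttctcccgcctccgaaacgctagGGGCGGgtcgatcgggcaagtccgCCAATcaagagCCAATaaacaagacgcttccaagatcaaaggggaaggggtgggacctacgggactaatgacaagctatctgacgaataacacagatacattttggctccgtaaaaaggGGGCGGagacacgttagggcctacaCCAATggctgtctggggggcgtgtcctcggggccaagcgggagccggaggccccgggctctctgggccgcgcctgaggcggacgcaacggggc
Slc25a38: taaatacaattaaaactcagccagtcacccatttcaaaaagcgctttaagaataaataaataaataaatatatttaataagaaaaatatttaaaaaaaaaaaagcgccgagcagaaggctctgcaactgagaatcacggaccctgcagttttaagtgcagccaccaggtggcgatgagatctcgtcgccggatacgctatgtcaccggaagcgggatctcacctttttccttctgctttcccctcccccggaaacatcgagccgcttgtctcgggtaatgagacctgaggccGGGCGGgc
The Slc25a28 window held 2 GC boxes and 3 CCAAT sequences, at bases 64 to 68, 75 to 79 and 208 to 212. The Slc25a38 window held a single GC box, at bases 293 to 298, and had the highest ratio of observed over expected CpG of the carrier promoters (1.11). It held 17 CpG dinucleotides at 45.3% GC, against medians of 24 and 63% in the called carrier promoters.

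The glutathione-linked pair was called in both replicates. Slc25a40, at 8422730 to 8454839 on chromosome 5, had fold enrichments of 5.72 and 6.38 and −log10 q of 10.6 and 11.2. Its summits were 2 bp before and 256 bp inside its 5′ end, and Dbf4, whose end lies beside it, was within reach of both. Slc25a39, the mitochondrial glutathione importer, had 3.31 and 8.06, with summits 138 bp before and 32 bp inside the 5′ end of its gene bounds. The listed start site of Slc25a39 is 1158 bp further inside. Replicate 1 also had a summit 128 bp beyond that site (3.90), and replicate 2 had none within 1000 bp of it.

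Of 3 uncoupling protein-like carriers, 1 was called in both replicates (33.3%, against 31.9% of all genes). Slc25a30, at 75757534 to 75787037 on chromosome 14, had 4.25 and 5.95, with −log10 q of 7.08 and 10.1. Its summits lay 156 bp inside and 16 bp outside the 5′ end. Slc25a27 had a summit in replicate 2 alone (5.31, −log10 q 7.83), 66 bp outside its higher-coordinate end and within reach of Cyp39a1. Slc25a14 had none. Both Slc25a27 and Slc25a14 are known mainly from brain.

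Of the 9 outer-membrane or less characterised members, 2 were called in both replicates (22.2%, against 31.9% of all genes). Slc25a45, at 5877801 to 5885768 on chromosome 19, had 4.31 and 6.21, with −log10 q of 6.69 and 11.0 and summits 83 and 87 bp inside the 5′ end. Slc25a35 had a peak close to the calling limit in replicate 1 (2.42, −log10 q 1.41, 0.657 percentile), and one of 7.97 in replicate 2 (86.0 percentile). Slc25a46, an outer-membrane protein that acts in mitochondrial shape, had a summit in replicate 2 alone, 578 bp inside its higher-coordinate end (5.35, −log10 q 8.94), and one 1233 bp inside that end in replicate 1 (3.74). Slc25a34 also had one in replicate 2 alone (5.05, −log10 q 7.02). It stood 121 bp inside the 3′ end, within reach of Tmem82, and 4894 bp from the listed start site. Slc25a43, Slc25a47, Slc25a48, Slc25a53 and Slc25a54 had none at their ends in either list.

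The 3 carrier genes on the X chromosome, Slc25a14, Slc25a43 and Slc25a53, were all without a summit. Few genes on this chromosome were called: 48 of 966, or 4.97%. Replicate 1 held 70 peaks on X and replicate 2 held 242. The absence of peaks at these carriers cannot be told apart from the low share of the whole chromosome.

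The called carrier genes nearest to the limit of 1000 bp were Slc25a25 (711 and 626 bp in replicates 1 and 2), Slc25a23 (646 and 637 bp) and Slc25a11 (538 and 143 bp). The nearest outside were Slc25a41 (1034 and 871 bp), Slc25a46 (1233 and 578 bp) and Slc25a34 (1422 and 121 bp). With a window of 500 bp, 19 carrier genes were called (44.2%, against 27.9% of all genes), and with 3000 bp 25 were (58.1%, against 36.8%). When both peaks needed a −log10 q of 5 or more, 15 were called (34.9%, against 21.1%). With the replicate 2 list shortened to its peaks of highest −log10 q, as many as replicate 1 has, the same 22 were called, against 30.1% of all genes. When any part of a peak could count, 24 were called (55.8%, against 33.7%), and when peaks had to overlap at the same end, 22 (51.2%, against 31.6%). Leaving out summits within reach of several protein-coding genes left 19 (44.2%, against 21.7%). Summits shared only with a noncoding gene stayed in. By the listed start site, 16 of 32 carrier genes were called, against 34.5% of all genes with one.

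By the calling rule every called gene has a summit near an end. In the 22 called carrier genes the nearest summit was a median of 110.5 bp from an end in replicate 1 and 123.5 bp in replicate 2, against 127 and 117 bp over all called genes. In each replicate 11 of the 22 nearest summits lay inside the gene. Summits of the replicates lay a median of 80.5 bp apart at the same end (range 3 to 395 bp), against 100.0 bp over all called genes, and 14 of 22 were within 100 bp. Of the 32 carrier genes of known strand, 17 (53.1%) had a summit at the 5′ end in both replicates, against 31.9% of all genes of known strand. These 17 were all the called carrier genes of known strand. Among all genes, 5578 of the 5768 called genes of known strand had one there. The position of the summit nearest to the 5′ end ran from 711 bp before it to 538 bp after it in replicate 1, with a median of 8 bp after it. In replicate 2 it ran from 637 bp before to 256 bp after, with a median of 32 bp after.

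**Figure D2:**
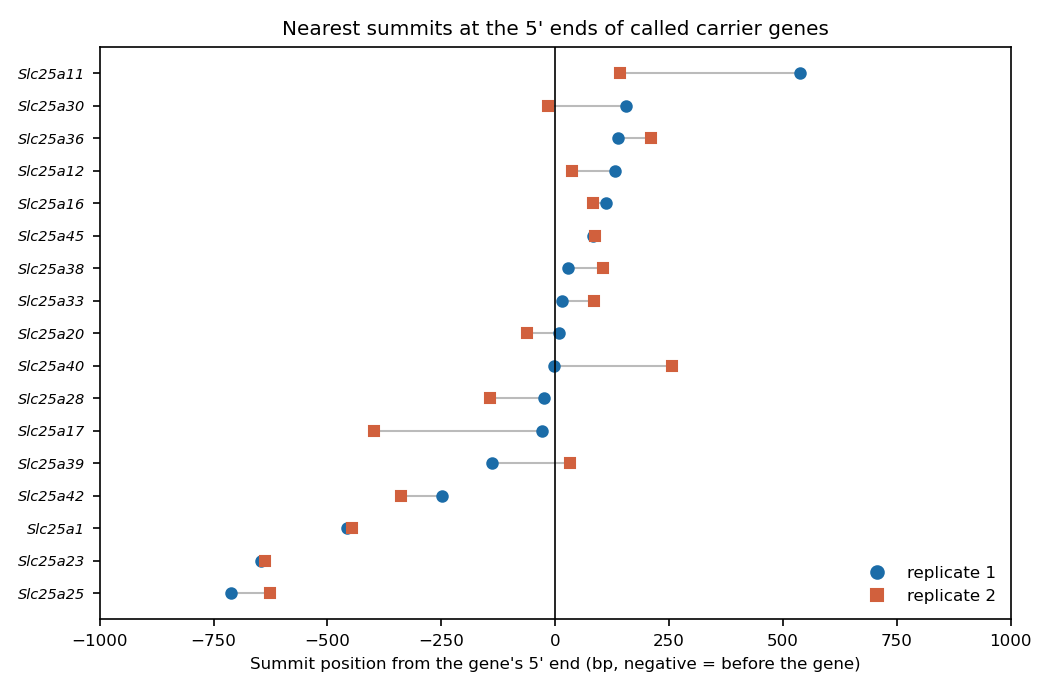
Position of the nearest summit along the gene, in bp from the 5′ end (horizontal axis, negative before the gene), for the 17 called carrier genes of known strand, with a circle for replicate 1, a square for replicate 2 and a line joining them. Slc25a25, Slc25a23 and Slc25a1 have both summits farthest before the 5′ end, and 13 genes in replicate 1 and 11 in replicate 2 are within 250 bp of it.

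Summits at both ends in both replicates were found at 3 carrier genes, Slc25a12, Slc25a44 and Slc25a16, of the 42 longer than 2000 bp, against 0.896% of all such genes. A neighbour's end was within reach at both ends of Slc25a44, at the 3′ end of Slc25a16 and at neither end of Slc25a12. Of the 22 called genes, 5 (22.7%) shared a summit with another protein-coding gene in both replicates, against 32.5% of all called genes. They were Slc25a44, Slc25a40, Slc25a16, Slc25a11 and Slc25a32. Where no other gene ended within 1000 bp, 12 of 24 carrier genes were called, against 22.1% of all such genes.

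**Figure D3:**
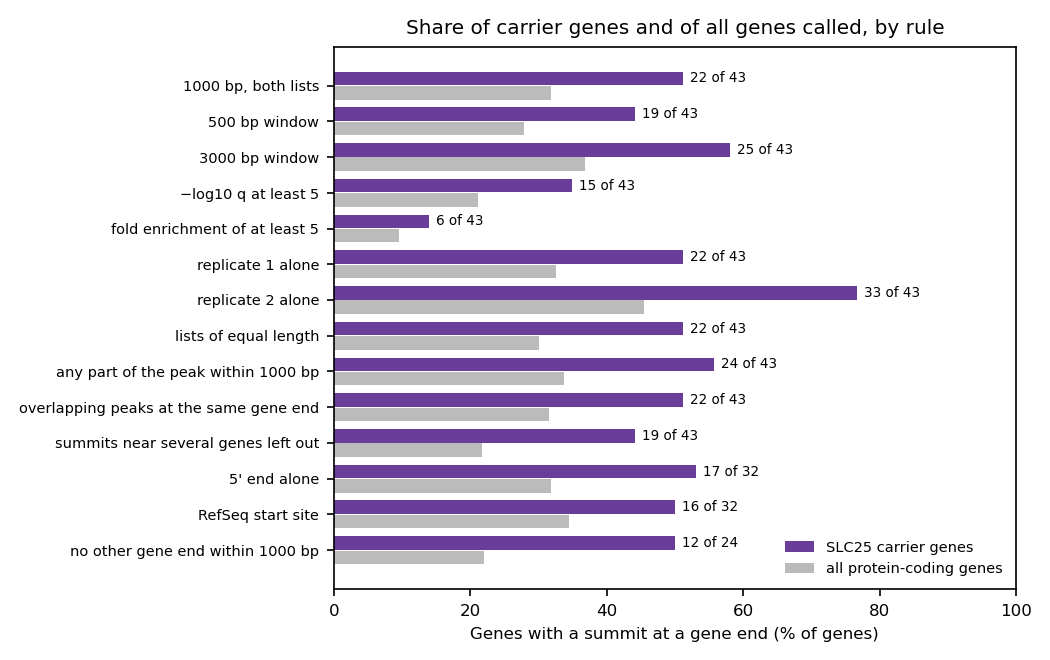
Percent of carrier genes (purple) and of all protein-coding genes (grey) called under each rule (horizontal axis, percent of genes; vertical axis, the rule; numbers at the bars count carrier genes). The share of carrier genes is 51.2%, against 31.9% of all genes, for a summit within 1000 bp in both lists, and 14.0%, against 9.52%, when both peaks need a fold enrichment of 5. The rule on summits near several genes counts protein-coding genes only.

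Promoter sequences were matched for 32 of the 43 carrier genes. Those without an entry included Slc25a2, Slc25a26, Slc25a27, Slc25a32, Slc25a35, Slc25a37, Slc25a41, Slc25a44, Slc25a46 and Slc25a51. The CpG ratio, observed over expected CpG dinucleotides in the 300 bases, had a median of 0.85 in the 17 carrier genes called in both replicates, against 0.83 in all genes so called. It was 0.56 in the 7 carrier genes with a summit in replicate 2 alone, against 0.70 in all such genes. In the 8 without a summit it was 0.46, against 0.27 in all such genes. Values overlapped between the classes: they ran from 0.35 in Slc25a45 to 1.11 in Slc25a38 among the called genes, and from 0.22 in Slc25a18 to 0.64 in Slc25a53 among those without a summit. The lowest ratio was that of Slc25a34 (0.04, with 1 CpG), whose summit was at the other end of the gene. Slc25a40, with the most CpG dinucleotides (47), was called.

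**Figure D4:**
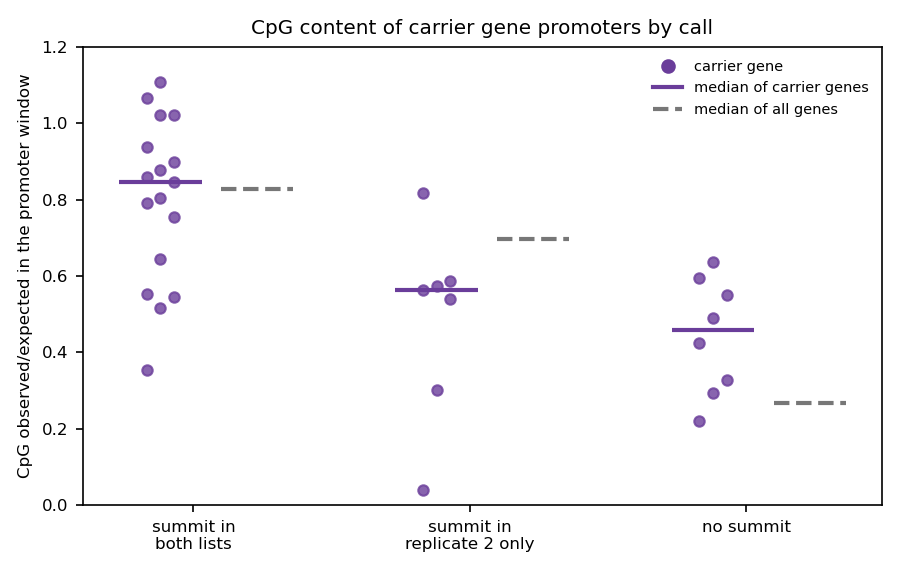
CpG observed/expected ratio of the 300-base promoter window (vertical axis) for the 32 carrier genes with a promoter sequence, by whether a summit was found in both lists, in replicate 2 only or in neither (horizontal axis). Points are genes, solid lines medians of the carrier genes and dashed lines medians of all genes of that class; the carrier medians are 0.85, 0.56 and 0.46.

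The GC box GGGCGG was present in 16 of 17 called carrier promoters (94.1%) and in 10 of 15 others (66.7%), against 69.0% of all called and 35.2% of all other promoters. Slc25a12 was the called carrier gene without it. CCAAT was in 10 of 17 called carrier promoters and 6 of 15 others, against 40.9% and 38.4% of all promoters in these classes. CACGTG was in 3 called carrier promoters (Slc25a1, Slc25a33 and Slc25a36) and 2 others, against 11.4% of all called and 6.19% of all other promoters. TATAAA was in 1 carrier promoter, that of Slc25a18, which had no summit. It was in 6.22% of all called and 16.8% of all other promoters. The NRF1 palindrome was in no carrier promoter, and in 2.81% and 0.606% of all promoters in these classes. TGACGTCA and CCGGAAGT were each in 1 called carrier promoter and in no other carrier promoter. Of all called promoters, 4.21% and 10.9% held them, and of all other promoters 1.4% and 2.52%. For comparison with the called genes, the promoter of Slc25a14, which had no summit in either list, is at chrX:48623198-48623497 on the plus strand.
Slc25a14: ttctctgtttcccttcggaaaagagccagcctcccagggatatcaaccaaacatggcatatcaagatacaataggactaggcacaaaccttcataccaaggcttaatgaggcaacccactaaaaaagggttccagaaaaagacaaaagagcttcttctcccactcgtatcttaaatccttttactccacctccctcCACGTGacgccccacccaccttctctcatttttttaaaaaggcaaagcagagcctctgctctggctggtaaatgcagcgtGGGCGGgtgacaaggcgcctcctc
It held a GC box and CACGTG, and 7 CpG dinucleotides. Slc25a14 is on the X chromosome, where 4.97% of genes were called, so its missing summit cannot be told apart from that low share. These matches are descriptions of letters in a window, and no site was tested.

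Related transporters were scored in the same way. Of 5 genes of the same protein family under other names, the mitochondrial carrier homologues Mtch1 and Mtch2 and the uncoupling protein gene Ucp2 were called (60.0%, against 31.9% of all genes). Ucp2 had 2.69 and 10.6 as its fold enrichments, and Ucp1 and Ucp3, the uncoupling proteins of brown fat and muscle, had no summit. Of 12 other inner-membrane transporters, 9 were called (75.0%, against 31.9% of all genes). They included both subunits of the pyruvate carrier, Mpc1 (3.36 and 9.03) and Mpc2 (3.09 and 11.7, shared with Dcaf6). Also called were the sideroflexins Sfxn1, Sfxn2 (shared with Arl3), Sfxn4 and Sfxn5, of which Sfxn1 carries serine. The other 3, which include Sfxn3 and Slc8b1, had a summit in replicate 2 alone. Of 10 genes for the insertion of carriers into the inner membrane, 8 were called (80.0%, against 31.9% of all genes). Among them were the chaperones Timm9 and Timm10 and the receptor Tomm70a. Apart from Tomm70a, each of these called genes shared its summits with another protein-coding gene in both replicates. Of all called genes, 32.5% shared a summit in this way. Timm22, the insertion channel, and Agk had a summit in replicate 2 alone (9.03 and 5.35). Of the 4 family members outside the rule, 1 was called (25.0%, against 31.9% of all genes). This was Slc25a3 (3.89 and 10.3), while Slc25a5 had a summit in replicate 2 alone (4.25), and Slc25a4 and Slc25a31 had none.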

How the data were processed

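Peaks were listed separately for each Flag ChIP library in the deposited files. Per the submitters' processing notes, MACS2, Bowtie2, cutadapt, Trimmomatic, FastQC and ChIPseeker were among the tools, with build mm10. Versions, the control and the cutoff are not given in the sources used here. Per the labels' protocols, fixation took 10 min in 1% formaldehyde, and amplification of 10 ng of DNA took 16 cycles. Fold enrichment, as deposited by the authors, is a ratio on a linear scale. The authors' −log10 p and −log10 q come from the peak caller, with a lowest −log10 q of 1.31 in replicate 1 against 1.30 in replicate 2. The score that the authors deposited follows from the −log10 q and was not used. Without counts in the lists, depth is unknown, and the cell type could not be checked against expression markers.

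Gene bounds were those of GRCm38.p6, the assembly behind mm10. Strand and start sites came from the RefSeq promoter table, which matched 17492 of 21887 genes and 32 of 43 carrier genes. Coordinates are 1-based. Each gene is described by its strongest peak by fold enrichment. Carrier genes were given in full when among the 12 highest called genes by the lower percentile rank, when called in 1 list alone, or among the 3 nearest the limit on each side. The members and lists were chosen with earlier results of these data known. The values of 1 called carrier gene are not reported here, though the counts include it. With 1 condition, no test between groups was made. Alternatives were the window, q and fold limits, list length, peak overlap, shared summits and the start site. Python 3.11.15, numpy 2.4.6, pandas 2.3.3 and matplotlib 3.10.9 were used, and gene calling was tested on simulated data.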

Additional observations from a re-analysis of the deposited data

How the results depend on the processing

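The count of 22 called carrier genes stayed within 1.5 times under windows of 500 bp (19) and 3000 bp (25), and at a −log10 q of at least 5 (15). It also did so with lists of equal length (22), with any part of the peak within reach (24) and with overlapping peaks at the same end (22). The same held without summits near several protein-coding genes (19). At the 5′ end alone the count was 17, among the 32 carrier genes of known strand. The main rule also called 17 of these 32, so the difference from 22 comes from the smaller set. At RefSeq start sites, chosen after seeing the data, 16 of the same 32 were called. With a fold enrichment of at least 5 in both lists the count over all 43 was 6 (14.0%, against 9.52% of all genes). Slc25a38, Slc25a44, Slc25a12, Slc25a25, Slc25a40 and Slc25a42 passed that setting. Among the 24 carrier genes with no other gene end in reach, a setting also chosen after seeing the data, it was 12, from a smaller set by construction. Leaving out a replicate gave 22 to 33: without replicate 2 the same 22 genes, and without replicate 1 the 11 seen in replicate 2 alone in addition. The 500 bp window lost Slc25a11, Slc25a23 and Slc25a25. The share of carrier genes was above that of all genes under every one of these settings. The median distance between summits was 80.5 bp, and 85 bp at a −log10 q of at least 5; it needs both replicates, so leaving one out gives no value. No paired analysis was possible because the input libraries were not analysed here and no comparison between groups was made. Unknown depth limits how far a missing summit can be read: it says only that no peak was listed.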

Other observations

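Some carrier genes also had summits more than 1000 bp inside both gene ends. The share of all protein-coding genes with such summits was not computed, so whether they are frequent in carrier genes is not known. Besides those described above, Slc25a17 had one in replicate 2 with a fold enrichment of 5.85, 5264 bp from its 5′ end. Slc25a44 had one of 5.21 and Slc25a29 one of 5.05, both in replicate 2. Weaker ones lay in Slc25a28 (2 summits of 3.99 in replicate 2), Slc25a33 (3.22 in replicate 2), Slc25a22 (3.01 in replicate 2) and Slc25a30 (2.99 in replicate 1). Summits of the replicates within 200 bp of each other inside a gene were seen in Slc25a12 and Slc25a24.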
